A study of Homo sapiens with 6 samples.

Results

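The hnRNP and SR splicing factors are the proteins that coat newly made RNA and decide which exons are kept. Their mRNA levels were compared in K1 cells, a human papillary thyroid carcinoma cell line, transfected either with a negative control siRNA (NC, 3 libraries) or with a siRNA against NEAT1_2 (si-NEAT1_2, 3 libraries). The members were 20 hnRNP genes and 12 SRSF genes, read by their exact symbol, making 32 of the 19684 genes listed with an Ensembl identifier. All 32 were abundant enough to be among the 12581 genes tested. Poly(A) RNA was sequenced from a single cell line, and the only agent that differed between the groups was the transfected siRNA. The deposited files do not say whether the 3 libraries of a group came from separate cultures, so the p-values measure only the spread between these libraries. NEAT1 itself was not analysed here.

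The hnRNP proteins bind nascent transcripts along their length, and many of them block splice sites or silence exons. The SR proteins (genes SRSF1 to SRSF12) carry RNA recognition motifs and a tail rich in arginine and serine, bind exonic enhancers and mostly favour exon inclusion. Many genes of both families control their own level through an alternative exon that sends the mRNA to nonsense-mediated decay. NEAT1_2 is the long RNA around which paraspeckles, bodies of the cell nucleus, are built, and HNRNPA1, HNRNPH3, HNRNPK, HNRNPR and HNRNPUL1 are known paraspeckle proteins.

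None of the 32 members passed the threshold of at least a 2-fold change with an adjusted p (Benjamini-Hochberg) under 0.05 in the quasi-likelihood test of edgeR. Over all 12581 genes tested this share was 0% higher and 0% lower in si-NEAT1_2, and DESeq2 also called 0 members while calling 18 genes higher and 44 lower. In bulk RNA, a change in every cell and a change in some of the cells cannot be told apart. The log2 fold changes of the members ran from -0.44 (SRSF11) to 0.23 (SRSF9), with standard errors from 0.11 to 0.34. The median was -0.03 for the hnRNP members and -0.06 for the SRSF members, compared with 0.01 for all genes tested. Without adjustment, 2 members (SRSF10 and SRSF11) were lower at p under 0.05 in the edgeR test and 0 were higher, whereas 13.2% of all genes were lower and 11.3% higher by the same rule. The groups did not overlap for 8 members, all of them lower in si-NEAT1_2, beside 14.3% of all genes that were lower without overlap and 15.7% that were higher.

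The libraries held between 22798631 and 27066025 expected counts. The labels of the 6 samples carry a code beginning with L, the meaning of which is not given: NC replicates 2 and 3 and si-NEAT1_2 replicate 2 share L2, NC replicate 1 and si-NEAT1_2 replicate 3 share L3, and si-NEAT1_2 replicate 1 alone has L4. Before any result of the members is read, the libraries differ in how counts follow base composition. The Spearman correlation across all genes between GC content and a library's deviation from the mean of the 6 ran from -0.66 to -0.26 over the NC replicates. For si-NEAT1_2 replicates 1, 2 and 3 it was -0.15, 0.52 and 0.62, so that by GC content si-NEAT1_2 replicates 2 and 3 stood apart from the other 4 libraries. The same correlation with transcript length ran from 0.28 to 0.50 over the NC replicates. It was 0.14, -0.65 and -0.13 for si-NEAT1_2 replicates 1, 2 and 3, so that by length si-NEAT1_2 replicate 2 lay furthest from the NC libraries. The thyroid transcription factor gene PAX8 was expressed at 113 to 169 FPKM and the epithelial keratin genes KRT7, KRT8 and KRT18 at 391 to 1586 FPKM, whereas TSHR, SLC5A5 and NKX2-1 stayed at or below 0.08 FPKM. The other epithelial markers of the list were low, with a mean of 0.408 FPKM for KRT19, 1.49 FPKM for EPCAM and 0.198 FPKM for CDH1. Of the 8 blood and endothelial markers, 7 were too low to be tested and only CD68 was expressed, at 11.6 to 19.6 FPKM, with a log2 fold change of 0.54 (edgeR adjusted p = 0.169). The part of these differences between libraries in the members' values was not tested beyond the corrections given here.

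The members were read in FPKM (the authors' values, adjusted for transcript length and sequencing depth) where genes are compared with each other. HNRNPA1, which binds exonic and intronic silencers, had the highest level, with a mean of 880.4 FPKM over the 6 libraries. It was followed by HNRNPC (638 FPKM), HNRNPA2B1 (459 FPKM), HNRNPK (426 FPKM) and SRSF2 (223 FPKM). SRSF2, HNRNPA3 (219 FPKM), HNRNPAB (213 FPKM), HNRNPD (208 FPKM) and HNRNPL (206 FPKM) lay close together, and their ranges over the libraries overlapped. HNRNPU (196 FPKM), HNRNPF (175 FPKM), SRSF9 (171 FPKM), HNRNPM (169 FPKM), SRSF3 (166 FPKM), SRSF1 (158 FPKM), HNRNPUL1 (141 FPKM) and HNRNPH1 (135 FPKM) formed the middle of the order. HNRNPDL (123 FPKM), SRSF7 (116 FPKM), HNRNPR (112 FPKM), SRSF5 (73.9 FPKM), HNRNPH3 (60.7 FPKM), SRSF10 (51.9 FPKM), SRSF4 (43.8 FPKM) and SRSF6 (35.9 FPKM) came next. The lowest were SRSF11 (34.9 FPKM), HNRNPH2 (31.6 FPKM), HNRNPA0 (27.1 FPKM), HNRNPUL2 (25.5 FPKM), SRSF8 (7.04 FPKM), HNRNPLL (5.98 FPKM) and SRSF12 (0.415 FPKM), the last with 29 to 55 counts per library. The median level was 172 FPKM in the hnRNP family and 62.9 FPKM in the SRSF family. Together the hnRNP members took 0.879% ± 0.0367 (SD, n = 3) of all counts in NC and 0.832% ± 0.0418 (SD, n = 3) in si-NEAT1_2, a difference within the spread of the libraries (two-sided exact permutation p = 0.2, where 0.1 is the smallest possible). The SRSF members took 0.202% ± 0.00998 (SD, n = 3) in NC and 0.192% ± 0.0140 (SD, n = 3) in si-NEAT1_2 (exact permutation p = 0.4).

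**Figure D1:**
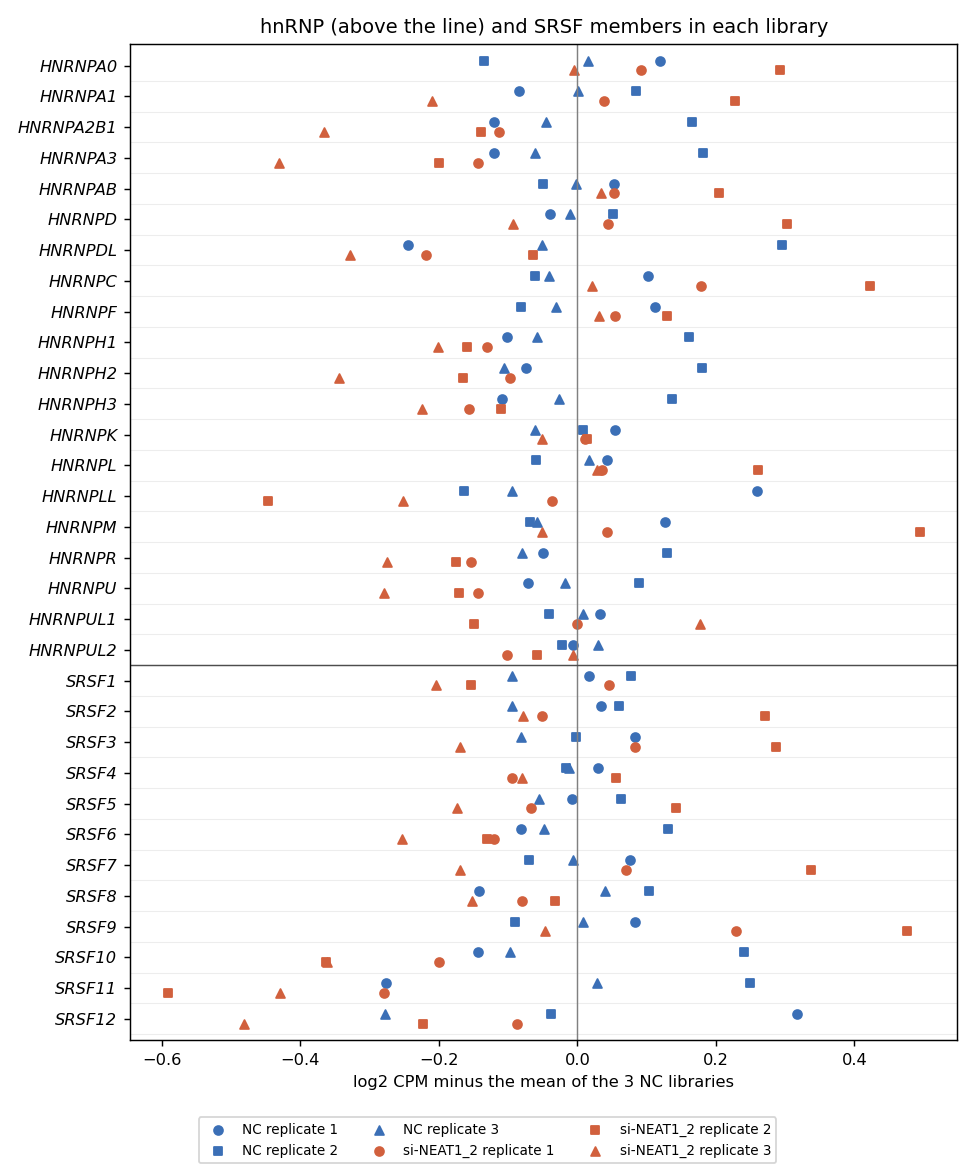
Level of each member in each library, as log2 CPM (counts scaled to library size by TMM) minus the mean of the 3 NC libraries; circles, squares and triangles are replicates 1, 2 and 3, blue for NC and orange for si-NEAT1_2, with hnRNP genes above the line and SRSF genes below it. For HNRNPA3, HNRNPH1, HNRNPH3, HNRNPR, HNRNPU, SRSF6, SRSF10 and SRSF11 all orange points lie left of all blue points, and si-NEAT1_2 replicate 2 lies far right of the other libraries for HNRNPC, HNRNPM and SRSF9.

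The A/B and D group holds the core hnRNP particle proteins and their relatives. HNRNPA1 had 1086, 1221 and 1152 CPM (counts scaled to a common library size, not to gene length) in the NC libraries and 1182, 1348 and 996 CPM in the si-NEAT1_2 libraries. The highest and the lowest value were both in the si-NEAT1_2 group, and the log2 fold change of 0.03 (SE 0.14) was far inside that spread. HNRNPA2B1, a partner of HNRNPA1 that also binds miRNAs and trafficked RNAs, had 809.9, 988 and 854 CPM in NC compared with 814, 799 and 683 CPM in si-NEAT1_2, with overlapping groups and a log2 fold change of -0.21 (SE 0.14). HNRNPA3 had 536, 660.3 and 558 CPM in NC and 527, 507 and 432 CPM in si-NEAT1_2. All 3 si-NEAT1_2 values of HNRNPA3 were below those in the NC group, the nearest pair being 536 and 527 CPM, and the difference was not significant (log2 fold change -0.26, SE 0.14, edgeR adjusted p = 0.252).

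HNRNPA0, which binds AU-rich elements and has a single long transcript, had 247, 207 and 229.5 CPM in NC and 242, 278 and 226 CPM in si-NEAT1_2, and the groups overlapped. HNRNPAB had 374, 348 and 359.7 CPM in NC against 374, 415 and 369 CPM in si-NEAT1_2. Each file also holds an unannotated locus under the same symbol with 83 to 211 counts per library, which was not counted as a member. HNRNPD, also called AUF1, which speeds the decay of AU-rich mRNAs, had 282, 299.9 and 287 CPM in NC and 298, 357 and 271 CPM in si-NEAT1_2. Its relative HNRNPDL ranged from 163 to 237 CPM within the NC group and gave a log2 fold change of -0.22 (SE 0.15).

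HNRNPC measures the length of nascent RNA and binds runs of U. It had 965, 862 and 874 CPM in NC compared with 1017, 1205 and 913 CPM in si-NEAT1_2. The highest value was in si-NEAT1_2 replicate 2, the lowest si-NEAT1_2 value lay inside the NC range, and the log2 fold change was 0.22 (SE 0.14, edgeR adjusted p = 0.338).

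The F/H group binds runs of G. HNRNPH1 had 213, 255 and 219 CPM in NC and 209, 205 and 199 CPM in si-NEAT1_2, so that the si-NEAT1_2 libraries lay close together below the NC libraries (log2 fold change -0.17, SE 0.12, edgeR adjusted p = 0.375). HNRNPH3, a paraspeckle protein, had 109, 129 and 115 CPM in NC, and 105, 109 and 101 CPM in si-NEAT1_2. Its groups did not overlap either, but NC replicate 1 and si-NEAT1_2 replicate 2 were level at 109 CPM to 3 digits, and the log2 fold change of -0.17 (SE 0.12) had an adjusted p of 0.377 in edgeR. HNRNPH2 ranged from 69.8 to 85.1 CPM in NC and from 59.2 to 70.2 CPM in si-NEAT1_2. HNRNPF ranged from 348 to 399 CPM in NC and from 377 to 404 CPM in si-NEAT1_2.

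HNRNPH1 and HNRNPH2 encode near-identical proteins, and SRSF8 is a close copy of SRSF2. A read that lies wholly within a stretch that these pairs of genes share cannot be assigned to 1 gene. The longest exact runs shared by their coding sequences (GENCODE release 29, GRCh38) are printed to show how short they are. The first has 50 bases and starts at base 772 of both coding sequences, counted from the A of the start codon. The other has 34 bases and starts at base 44 of both.
HNRNPH1 and HNRNPH2: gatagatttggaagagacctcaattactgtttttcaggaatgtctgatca
SRSF2 and SRSF8: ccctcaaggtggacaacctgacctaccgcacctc
The expected counts of HNRNPH1 and SRSF8 were whole in all 6 libraries, that is, no read of theirs had been divided between genes. Over the members, 27 had whole counts in every library and 5 did not. HNRNPA1, SRSF2 and SRSF9 had non-whole counts in 6 libraries, HNRNPH2 in 5 and HNRNPL in 3. SRSF2 shares 1106 of its exon bases with MFSD11 and SRSF9 shares 1729 with GATC, both on the opposite strand, and HNRNPH2 shares 362 with the read-through gene RPL36A-HNRNPH2 on its own strand. HNRNPU shares 3502 exon bases with COX20 on the opposite strand, with whole counts. HNRNPA2B1, HNRNPAB, HNRNPH3 and HNRNPUL1 share 368, 196, 115 and 215 exon bases with other genes on the opposite strand, also with whole counts. Whether the counting used strand is not given in the sources used here. The levels of all these members with overlaps on the opposite strand are uncertain to that extent. For HNRNPH2 the overlap is on its own strand, so strand could not resolve it.

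HNRNPK, which binds runs of C, was the steadiest of the abundant members. It had 984, 953 and 909 CPM in NC and 955, 958 and 915 CPM in si-NEAT1_2, with a log2 fold change of -0.01 (SE 0.12). HNRNPL, which binds CA repeats, had a range of 332 to 356 CPM in NC and of 352 to 414 CPM in si-NEAT1_2. Its relative HNRNPLL, known from alternative splicing of CD45 in lymphocytes, lay between 12.6 and 20.5 CPM in all libraries. HNRNPM ranged from 337 to 385 CPM in NC and from 341 to 497 CPM in si-NEAT1_2, where replicate 2 alone was above the NC range.

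HNRNPR, a paraspeckle protein related to SYNCRIP, had 295, 334 and 289 CPM in NC and 275, 271 and 253 CPM in si-NEAT1_2. The groups did not overlap, and the log2 fold change was -0.20 (SE 0.12, edgeR adjusted p = 0.286). HNRNPU, a scaffold protein that ties RNA to chromatin, had 666, 745 and 691 CPM in NC compared with 633, 621 and 577 CPM in si-NEAT1_2. Its groups were also separate, with the same size of difference (log2 fold change -0.20, SE 0.12, edgeR adjusted p = 0.304). HNRNPUL1 had 453, 431 and 446 CPM in NC and 443, 399.5 and 501 CPM in si-NEAT1_2, where the si-NEAT1_2 libraries lay on both sides of the NC range. HNRNPUL2 stayed between 127 and 139 CPM in all libraries. Of the 5 paraspeckle members, HNRNPH3 and HNRNPR were lower without overlap, and the other 3 had log2 fold changes between -0.01 and 0.03.

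SRSF10 and SRSF11 were the members with the lowest p-values. SRSF10, a splicing repressor that acts when dephosphorylated, had 99.96, 130.4 and 103 CPM in NC and 96.1, 85.9 and 85.9 CPM in si-NEAT1_2. All si-NEAT1_2 values were below the NC values, NC replicate 2 was the highest, and the log2 fold change was -0.32 (SE 0.14, edgeR adjusted p = 0.190). SRSF11, also called p54, had 84.6, 122 and 105 CPM in NC and 84.5, 68.0 and 76.2 CPM in si-NEAT1_2. Replicate 1 of both groups was almost level, and in FPKM the groups overlapped (33.5 in NC replicate 1 and 34.0 in si-NEAT1_2 replicate 1). The log2 fold change of SRSF11 was -0.44 (SE 0.15, edgeR adjusted p = 0.169). For both genes the exact permutation p was 0.1, the smallest possible, as for every member whose groups did not overlap. The unadjusted edgeR p-values were 0.0407 for SRSF10 and 0.0152 for SRSF11. Without NC replicate 2 the log2 fold changes were -0.19 for SRSF10 and -0.31 for SRSF11, with edgeR p-values of 0.212 and 0.0771. The study's methods speak of 3 pairs of cell samples without saying which libraries belong together, and with the replicate number as a block the edgeR p-values were 0.0998 for SRSF10 and 0.0531 for SRSF11.

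SRSF6, the third SRSF gene without overlap, had 156, 180.2 and 159 CPM in NC and 151, 150.4 and 138 CPM in si-NEAT1_2 (log2 fold change -0.17, SE 0.12, edgeR adjusted p = 0.366). SRSF2, which like SRSF1 defines exons by binding their enhancers, had 312, 318 and 285 CPM in NC compared with 294, 368 and 288 CPM in si-NEAT1_2. SRSF3, the smallest SR protein and a factor in mRNA export, had 395, 372 and 352 CPM in NC and 395, 454 and 331 CPM in si-NEAT1_2. In both genes the si-NEAT1_2 libraries spread further than the NC libraries, with replicate 2 on top. SRSF9 had 201, 178 and 191 CPM in NC and 222, 264 and 184 CPM in si-NEAT1_2, the same order of si-NEAT1_2 libraries, and the log2 fold change of 0.23 (SE 0.14) did not pass (edgeR adjusted p = 0.311). SRSF4 had 104, 101 and 101 CPM in NC and 95.5, 106 and 96.5 CPM in si-NEAT1_2. SRSF1, SRSF5, SRSF7, SRSF8 and SRSF12 had log2 fold changes of -0.10, -0.03, 0.09, -0.09 and -0.28, with overlapping groups.

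In FPKM, 10 members were lower without overlap and 0 were higher, beside 15.5% of all genes that were lower without overlap on this scale and 12.7% that were higher. Of the 10 members, 7 were also separate in CPM. HNRNPLL, HNRNPUL2 and SRSF4 were separate in FPKM alone and SRSF11 in CPM alone. Within the L2 libraries (2 NC and 1 si-NEAT1_2) the median log2 difference was -0.10 for the hnRNP members and 0.00 for the SRSF members. Within L3 (1 NC and 1 si-NEAT1_2) the medians were -0.11 and -0.17, and 30 of the 32 members were lower, compared with 6450 of all 12581 genes. Within L2, 17 of the 32 members and 6312 of all genes were lower. SRSF10 and SRSF11 were lower within both codes, by -0.43 and -0.73 on the log2 scale in L2 and by -0.22 and -0.15 in L3. These values rest on 1 library of si-NEAT1_2 each and carry no test, and L4 holds no NC library.

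Many of the members have a low GC content, which the rule did not use. The longest coding transcripts of the members ran from 35.3% (HNRNPR) to 56.3% GC (HNRNPUL1). Their median GC content was 42.0%, compared with 48.5% for all genes tested, and 21 of the 32 (65.6%) were under 45% GC, compared with 37.3% of all genes. With the coding transcript nearest to the length implied by the deposited values (below), the median was 44.3%. By this measure 17 of the 32 (53.1%) were under 45%, a share not counted over all genes. Across the 32 members, the Spearman correlation between GC content and the log2 fold change was 0.58, and across all genes it was 0.65 (genes of the same 6 libraries, which are not independent replicates). Of the 21 members under 45% GC, 15 were lower in si-NEAT1_2 (median log2 fold change -0.17) and 7 of them without overlap. Of the 11 members at or above 45% GC, 4 were lower (median 0.05), and HNRNPH1 alone was without overlap. Lower genes, with or without overlap, were not counted over all genes of the same GC class. Among all genes, the median log2 fold change ran from -0.45 in the decile with the lowest GC content to 0.31 in the decile with the highest.

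As examples, the middle 120 bases of the coding sequence are printed for SRSF10, SRSF11, SRSF9 and HNRNPUL1. The longest coding transcripts of SRSF10 and SRSF11 have 36.2% and 38.3% GC, and those of SRSF9 and HNRNPUL1 have 52.3% and 56.3%. G and C are in capitals. Each stretch is from the coding transcript of GENCODE release 29 nearest to the length implied by the deposited values (below), and positions are given in GRCh38.
SRSF10: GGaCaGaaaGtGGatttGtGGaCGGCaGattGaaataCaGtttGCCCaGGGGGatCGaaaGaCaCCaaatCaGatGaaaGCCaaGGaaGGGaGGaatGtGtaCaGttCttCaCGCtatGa
SRSF11: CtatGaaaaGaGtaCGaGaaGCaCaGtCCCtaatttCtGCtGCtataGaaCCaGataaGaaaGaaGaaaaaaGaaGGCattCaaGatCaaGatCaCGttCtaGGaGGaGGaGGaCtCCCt
SRSF9: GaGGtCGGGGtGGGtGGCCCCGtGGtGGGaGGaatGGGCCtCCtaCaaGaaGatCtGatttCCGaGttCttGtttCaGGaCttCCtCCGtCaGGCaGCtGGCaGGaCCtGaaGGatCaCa
HNRNPUL1: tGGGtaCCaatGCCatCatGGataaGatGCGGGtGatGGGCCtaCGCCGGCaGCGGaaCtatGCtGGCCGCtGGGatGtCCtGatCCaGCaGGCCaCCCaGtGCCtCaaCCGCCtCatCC
SRSF10 is transcribed from the minus strand of chromosome 1, between 23964804 and 23980927, and the printed stretch has 46.7% GC in a transcript of 38.2%. SRSF11 is read from the plus strand of chromosome 1, between 70205682 and 70253052, with 41.7% GC in the stretch and 43.2% in the transcript. SRSF9 is transcribed from the minus strand of chromosome 12, between 120461668 and 120469793, with 58.3% GC in the stretch and 52.3% in the transcript. HNRNPUL1 is read from the plus strand of chromosome 19, between 41262496 and 41307598, with 61.7% GC in the stretch and 56.8% in the transcript.

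The fit was therefore repeated with a correction that removes, in each library, the trend of all genes with the GC content and the length of the longest coding transcript. After it, 0 members and 4 genes (0.0318%) passed the fold and adjusted p thresholds of edgeR. At an unadjusted p under 0.05, 5 members were higher (7.96% of all genes were) and 3 were lower (8.07% of all genes were). The higher members were HNRNPC (log2 fold change 0.59, SE 0.17), HNRNPA0 (0.62, SE 0.22), HNRNPR (0.41, SE 0.17), SRSF3 (0.43, SE 0.16) and HNRNPD (0.29, SE 0.11). The lower members were HNRNPH1 (-0.23, SE 0.10), SRSF4 (-0.22, SE 0.07) and HNRNPAB (-0.20, SE 0.08). The lowest adjusted p of a member was 0.192. Corrected values did not overlap for 2 members that were higher (10.1% of all genes) and for 4 that were lower (11.6% of all genes). SRSF10 and SRSF11 no longer stood out, with corrected log2 fold changes of 0.07 (SE 0.08) and -0.09 (SE 0.08). The medians became 0.06 for the hnRNP and 0.09 for the SRSF members, and 17 of the 32 members changed sign, a count not made over all genes.

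**Figure D2:**
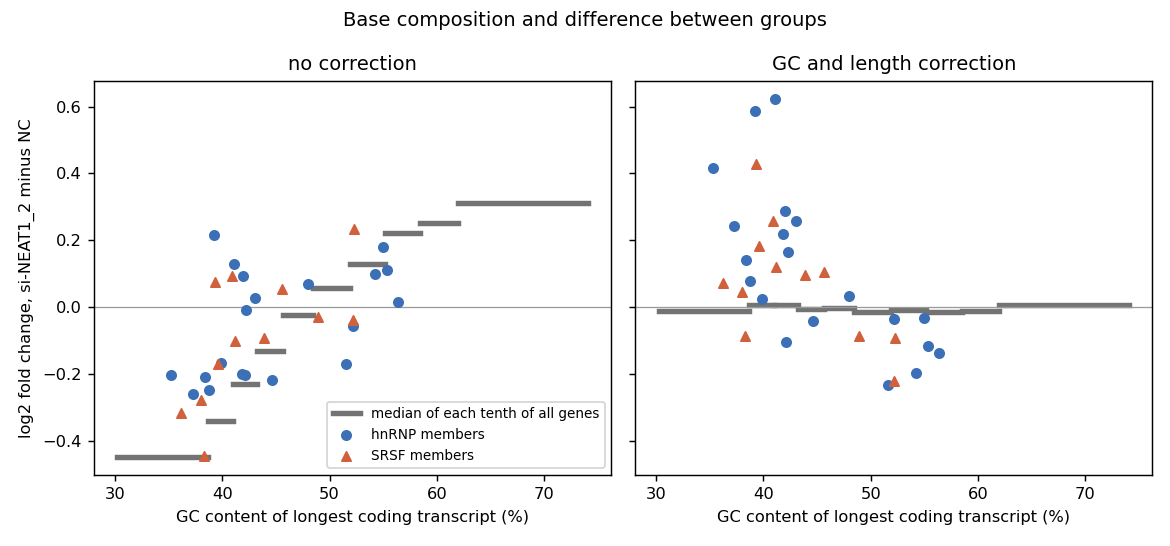
GC content of each member's longest coding transcript (percent) against its log2 fold change, without correction on the left and with the GC and length correction on the right; blue circles are hnRNP and orange triangles SRSF members, and grey bars are the medians of each decile of all genes by GC content. On the left the grey bars rise from -0.45 to 0.31, and the members also tend to rise with GC content. HNRNPC (0.22) and HNRNPA0 (0.13) lie above the bars at their GC content, and HNRNPUL1 (0.01) lies below. On the right the bars are flat near 0 while the members under 45% GC lie mostly above 0.

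The correction removed the trend of all genes (Spearman correlation with GC content -0.00) but left the opposite trend among the members (-0.63). The same held for transcript length. Its Spearman correlation with the log2 fold change was -0.53 over all genes and -0.33 over the members without correction. After the correction it was -0.01 over all genes and 0.59 over the members. Of the 21 members under 45% GC, 18 were higher after the correction (median 0.16), and of the 11 others 2 were (median -0.09). These counts were not made over all genes of the same GC class, whose corrected decile medians lay between -0.013 and 0.007. The higher corrected values also rested in part on si-NEAT1_2 replicate 2: relative to the NC mean, the median corrected level of the 32 members was 0.01, 0.21 and 0.02 on the log2 scale in the si-NEAT1_2 replicates. Without si-NEAT1_2 replicate 2, the corrected log2 fold change was 0.35 for HNRNPC, 0.30 for HNRNPA0, 0.20 for SRSF3, 0.17 for HNRNPR and 0.13 for HNRNPD, and of these 5 HNRNPC and HNRNPA0 were still under an unadjusted edgeR p of 0.05. The lower members HNRNPH1 (-0.26), SRSF4 (-0.23) and HNRNPAB (-0.17) all stayed under that p without this library. Within L2 the corrected medians were 0.27 for hnRNP and 0.21 for SRSF, and within L3 they were -0.01 and -0.03.

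The longest annotated transcript was longer than the length that the quantification assumed for most members. The deposited count and FPKM of a gene together give the mean transcript length that the authors' quantification assumed, and this implied length can be set beside the annotation. It equalled the annotated length for HNRNPA0 (8726 bases), HNRNPH2 (2223 bases) and SRSF6 (4325 bases). For HNRNPC it was 1500 to 1528 bases in the 6 libraries, whereas the longest coding transcript has 4501 bases. For HNRNPA1 it was 1239 to 1353 bases against 4121, and for HNRNPR 2499 to 2571 bases against 7646. The mean implied length over the 6 libraries was under 95% of the longest coding transcript in 23 of the 32 members, and under 50% of it in 11.

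With the implied length and the GC content of the coding transcript nearest to it in place of the longest one, 3 members were higher at an unadjusted p under 0.05 in edgeR, HNRNPA0 (0.71, SE 0.23), SRSF3 (0.35, SE 0.13) and SRSF6 (0.29, SE 0.12), while 7.78% of all genes were. Another 3 were lower, HNRNPH1 (-0.49, SE 0.13), SRSF11 (-0.26, SE 0.10) and SRSF2 (-0.21, SE 0.09), while 7.94% of all genes were. HNRNPC (0.08, SE 0.07), HNRNPR (-0.03, SE 0.07) and HNRNPD (-0.12, SE 0.09) were then near 0. The lowest adjusted p was 0.128 (HNRNPH1), and the median over all 32 members was -0.02. HNRNPA0, SRSF3 and HNRNPH1 were the 3 members at an unadjusted p under 0.05 in edgeR under both corrections, and 9 members differed in sign between the corrections. Both corrections use the same 6 libraries, and neither count was made over all genes. HNRNPA0 has a single transcript, so its GC content and length are the same in both corrections. Its result under both therefore says nothing about the choice of transcript. SRSF3 keeps the same GC content in both, and only its length differs. With the nearest transcript, too, the correlation of the members' corrected differences with GC content was negative (-0.54).

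**Figure D3:**
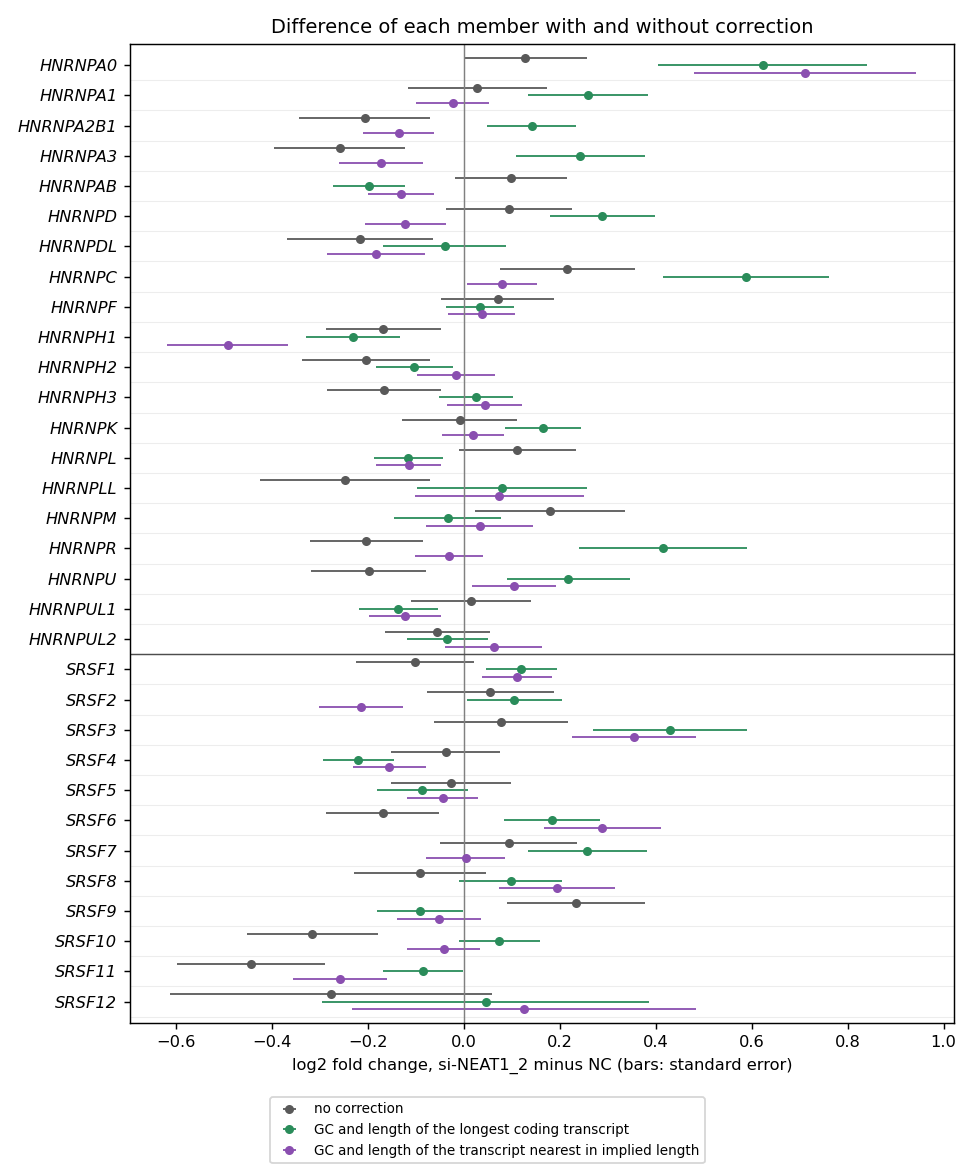
Log2 fold change of each member (si-NEAT1_2 minus NC, bars are standard errors) without correction in grey, with the GC and length correction by the longest coding transcript in green, and by the transcript nearest in implied length in purple. The 3 estimates stay on 1 side of 0 for 11 members, such as HNRNPH1 and SRSF11, and split for others, such as HNRNPR at -0.20, 0.41 and -0.03.

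Most members have annotated transcripts of the kinds that are kept from making protein. GENCODE lists a transcript subject to nonsense-mediated decay for 25 of the 32 members (78.1%), compared with 42.8% of all genes tested, and a retained intron for 23 (71.9%), compared with 57.2%. The members have a median of 11 annotated transcripts, compared with 8. The mix of transcripts, read by the implied length, was compared in limma over 7144 genes with at least 5 FPKM in every library, an analysis added after the data were seen. The length did not overlap between the groups for 3 members, all longer in si-NEAT1_2, beside 5.8% of all genes that were longer and 5.21% that were shorter.

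HNRNPH1 had the largest shift, with 1464, 1495 and 1574 bases in NC and 1687, 1841 and 1689 bases in si-NEAT1_2 (1511 ± 56.6 and 1739 ± 88.3, SD, n = 3). Its FPKM values therefore differed more than its counts, with 147, 176 and 141 FPKM in NC and 125, 103 and 117 FPKM in si-NEAT1_2. On the log2(FPKM + 1) scale the difference was -0.42 (limma adjusted p = 0.196), compared with -0.17 in the counts. SRSF7 had 1319, 1302 and 1292 bases in NC and 1329.9, 1368 and 1366 bases in si-NEAT1_2. HNRNPUL2 had means of 5228 and 5229 bases, a difference within the rounding of the deposited FPKM. The unadjusted p of limma was 0.0115 for HNRNPH1 and 0.0178 for SRSF7, where 5.03% of all genes had a p under 0.05, and the adjusted p was 0.857 for both. Over all genes, 0 passed an adjusted p under 0.05. Which transcripts make up the shift in HNRNPH1, for which 50 transcripts are annotated, was not tested.

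**Figure D4:**
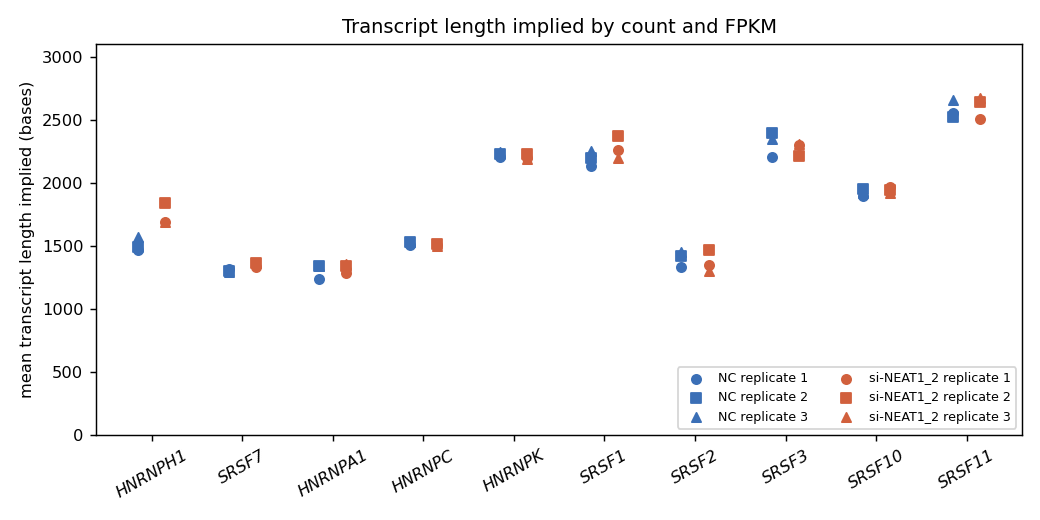
Mean transcript length in bases implied by the deposited count and FPKM, for 10 members in each library; blue is NC, orange si-NEAT1_2, and the marker shape gives the replicate. The HNRNPH1 values of si-NEAT1_2 (1687 to 1841 bases) lie above those of NC (1464 to 1574 bases), and the other members shown except SRSF7 overlap.

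The deposited group table, which holds 1 value per group and no replicates, gave another picture of the same genes. Of the 32 members, 0 were at least 2-fold higher and 0 at least 2-fold lower in si-NEAT1_2, compared with 4.16% and 16% of 12404 genes. The ratio of si-NEAT1_2 to NC ran from 0.615 (HNRNPUL2, 37.2 and 22.9 FPKM in NC and si-NEAT1_2) to 1.48 (SRSF6, 11.1 and 16.3 FPKM). Among the hnRNP members, 17 of 20 were lower in si-NEAT1_2 (median log2 ratio -0.30). Among the SRSF members 6 of 12 were lower and 5 higher, and SRSF12 had equal values (median -0.00). Over all genes 65.1% were lower, with a median of -0.24. All 5 paraspeckle members were lower in the group table, from HNRNPK (310.2 and 304 FPKM) to HNRNPH3 (77.5 and 48.3 FPKM).

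For most members the group values did not match the libraries. The NC group value was below the lowest NC library for 26 members, above the highest for 5 and within the range for 1. The si-NEAT1_2 group value was below the lowest si-NEAT1_2 library for 28 members, above the highest for 1 and within the range for 3. SRSF10 was given as 23.9 FPKM for NC in the group table, but the NC libraries had 53.4, 69.0 and 54.2 FPKM. SRSF6 was given as 11.1 FPKM, compared with 36.3, 43.0 and 37.1 FPKM. The median member stood at 81.2% of its NC library mean in the hnRNP family and at 56.8% in the SRSF family. Directions differed too: of the 13 members that were higher in the libraries, 8 were lower in the group table, among them HNRNPC (468 and 337 FPKM), and of the 19 that were lower, 3 were higher there (SRSF4, SRSF6 and HNRNPLL). These comparisons with the libraries were counted for the members only. Whether other genes of the group table differ from the libraries in the same way was not tested. How the group values were made from the libraries is not given in the sources used here.

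**Figure D5:**
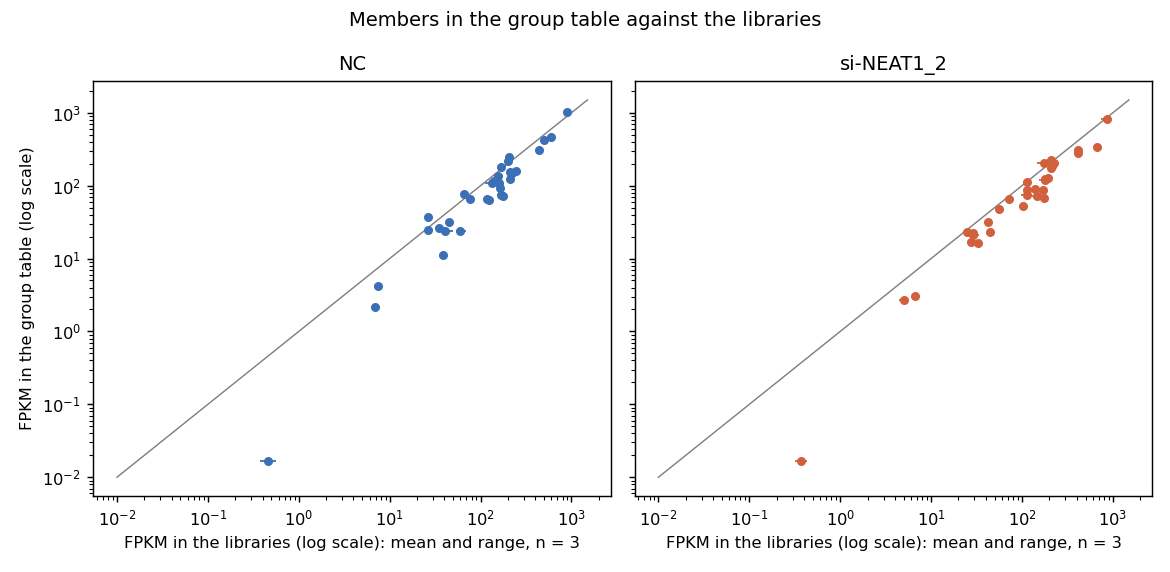
FPKM of each member in the group table (vertical, log scale) against the mean of the 3 libraries (horizontal, log scale, bars are the range over the 3 libraries), for NC on the left and si-NEAT1_2 on the right; the line marks equal values. Most points lie below the line, 26 of 32 below the lowest NC library on the left and 28 of 32 below the lowest si-NEAT1_2 library on the right.

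Other splicing genes were read in the same fit from lists chosen with earlier results of these data known. Of 20 SR-related factors and SR kinases, 5 were lower at an unadjusted p under 0.05 and 0 higher (median log2 fold change -0.21), where 13.2% of all genes were lower and 11.3% higher; the same shares stand beside the next lists. SREK1, a regulatory SR-like protein (-0.79, SE 0.28), and BCLAF1 (-0.58, SE 0.22) had the lowest values among them, and SON (-0.44), SRPK1, a kinase of SR proteins (-0.35), and RBM39 (-0.33) were the others, all with adjusted p-values of at least 0.169 in edgeR. After the GC and length correction BCLAF1 was at -0.04 and SREK1 at -0.25, and 5 genes (CLK1, SON, SRRM2, TNPO3 and RBM39, from -0.31 to -0.17) were lower at an unadjusted p under 0.05, beside 8.07% of all genes. The kinase gene CLK3 (0.57) was the 1 that was higher, beside 7.96%. Of 18 other hnRNP-related proteins, 2 were lower and 0 higher, MBNL1 (-0.69, SE 0.23) and the nuclear matrix protein gene MATR3 (-0.40, SE 0.14), with corrected values of -0.25 and -0.00. Of 26 core snRNP and spliceosome proteins, 6 were higher and 1 lower (median 0.14). SF3B5 (0.55, SE 0.20) and SNRPA, a U1 protein (0.50, SE 0.14), had the highest values, and SF3B1 (-0.39, SE 0.15) was the lower one. Their corrected values were 0.14, 0.11 and 0.02. After the correction, 5 of the 26 core genes were higher at an unadjusted p under 0.05 and 2 lower. Of the 18 other hnRNP-related genes, 4 were then higher and 2 lower. By the same rule 7.96% of all genes were higher and 8.07% lower. None of these genes passed the fold and adjusted p thresholds in edgeR. SON, SRPK1, RBM39, CLK1, SRRM2, TNPO3 and CLK3 were chosen for mention after their values were seen.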

How the data were processed

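Samples were grouped by their labels, and the members and gene lists were chosen with earlier results of these data known. Per the paper's methods, total RNA was enriched with oligo(dT) beads and depleted of rRNA, and the authors mapped reads with TopHat2 and quantified them with RSEM. The submitters' processing notes also name fastp 0.18.0, Bowtie2 2.2.8, HISAT2 and StringTie 1.3.1 and the build GRCh38, with no role given. The deposited expected counts are estimates per gene and library, not normalized. The authors' deposited FPKM values correct for length and depth, and the deposited group table gives 1 expected count and 1 FPKM per group, printed as the authors' values.

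Counts were rounded, filtered (filterByExpr), TMM-normalized and compared by quasi-likelihood fits (edgeR 4.0.16, R 4.3.3), with Benjamini-Hochberg adjustment over 12581 genes. Unannotated loci (838 rows, 0.336% to 0.447% of counts) were left out of the tests. For the correction, natural splines (5 degrees of freedom) of GC content and log length, from GENCODE release 29, were fitted per library to log2 CPM deviations and entered as offsets. Implied length was count divided by total count and FPKM. This comparison (limma 3.58.1) and the correction with the nearest transcript were added after the data were seen. FPKM values were also tested as log2(FPKM + 1) and log2(FPKM + 0.1), and DESeq2 1.42.0 was an alternative, as were other filters and scalings, a replicate block, the L code, and the omission of each library. Exact permutation tests of single values were two-sided. Differences read on the log2(FPKM + 1) scale are understated for low genes. The scripts were tested on simulated data. All 32 members were named. Values in every library were given for members with an unadjusted p under 0.05 without or with correction, members whose groups did not overlap, the 5 paraspeckle members and the 3 highest of each family by FPKM, and of the other lists the 2 highest and 2 lowest genes with such a p were named. In all, 0 sample columns were left unmapped.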

Additional observations from a re-analysis of the deposited data

How the results depend on the processing

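No member was called under any of the alternatives run without correction. After the correction, HNRNPC (adjusted p = 0.0215) and HNRNPA0 (adjusted p = 0.0261) were below an adjusted p of 0.05 in edgeR without a filter on low counts, where 376 genes were, and their fold changes stayed under 2. The share of all genes called was unstable: 9 higher and 8 lower without a filter, 18 and 44 with DESeq2, 1 lower with library size alone, 1 lower on the log2(FPKM + 0.1) scale, and 0 to 43 higher and 0 to 292 lower when 1 library was left out, the highest counts without si-NEAT1_2 replicate 1. The cause was not tested.

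Members lower at an unadjusted p under 0.05 numbered 5 with library size alone (14.6% of all genes), 7 on the log2(FPKM + 1) scale (13.6%), 6 on the log2(FPKM + 0.1) scale (13.5%) and 1 with the L code as a covariate (16.6%), 0 to 3 when 1 library was left out (0 without NC replicate 2, 3 without si-NEAT1_2 replicate 2), and 0 to 1 were then higher (SRSF9 without si-NEAT1_2 replicate 3). The hnRNP median was -0.0917 with library size alone and -0.0882 and -0.0902 on the FPKM scales. The groups carry the same replicate numbers, which the main fit did not take as pairs. Same-numbered libraries did not deviate together (correlations -0.27, -0.35 and -0.02). These correlations of uncorrected values include the libraries' trends with GC content and length, so they cannot show whether libraries were prepared as pairs. With a replicate block 0 members were lower (6.8% of all genes were), and after correction 1 was higher (4.77%).

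After correction, members higher numbered 2 on the log2(FPKM + 1) scale (7.5% of all genes), 9 with the L code (8.93%), 2 with length alone (11.5%) and 3 with the nearest transcript (7.78%), and 1 to 11 when 1 library was left out, lowest without NC replicate 2 and highest without si-NEAT1_2 replicate 1. Members lower numbered 1 without a filter (6.72%), with the L code (8.13%) and with GC content alone (7.54%), and 0 to 5 when 1 library was left out, lowest without NC replicate 2 and highest without si-NEAT1_2 replicate 2. The SRSF median was -0.0736 with length alone and -0.0193 with the nearest transcript. Without overlap in corrected values, 2 members were higher (10.1% of all genes) and 4 lower (11.6%).

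Among the members whose values are given for every library, signs turned as follows. Without correction, HNRNPA1, HNRNPUL1 and SRSF2 were at -0.0373, -0.0404 and -0.0112 with library size alone, HNRNPA1 and HNRNPUL1 at -0.0651 and -0.0418 on the log2(FPKM + 1) scale and -0.0652 and -0.0421 on the log2(FPKM + 0.1) scale, and HNRNPUL1 at -0.0136 with the L code. When 1 library was left out, the log2 fold change ranged from -0.0920 to 0.135 for HNRNPA1, from -0.0415 to 0.0125 for HNRNPK, from -0.0730 to 0.0827 for HNRNPUL1, from -0.0328 to 0.179 for HNRNPD, from -0.0750 to 0.118 for SRSF2 and from -0.0488 to 0.187 for SRSF3. With correction these ranges were -0.00585 to 0.0799 for HNRNPH3 and -0.0259 to 0.170 for SRSF2. With length alone, HNRNPA2B1, HNRNPA3, HNRNPH3, HNRNPK, HNRNPUL1, SRSF6 and SRSF10 were at -0.157, -0.0247, -0.293, -0.0415, 0.0496, -0.0545 and -0.285, and with GC content alone SRSF9 was at 0.133. With the nearest transcript, HNRNPA1, HNRNPA2B1, HNRNPA3, HNRNPD, HNRNPR, SRSF2 and SRSF10 were at -0.0233, -0.136, -0.173, -0.122, -0.0318, -0.215 and -0.0424. Corrected values of HNRNPH3 and SRSF10 were -0.0389 and -0.0498 on the log2(FPKM + 1) scale, and those of SRSF9 and SRSF10 were 0.0267 and -0.00301 without a filter. Among the other members, leaving out 1 library also turned the sign of HNRNPM, SRSF5 and SRSF7 without correction and of HNRNPDL, HNRNPLL, HNRNPM, HNRNPUL2 and SRSF12 with it, and the nearest transcript turned that of HNRNPM and HNRNPUL2. Counts of 29 to 55 limit SRSF12, and 3 libraries a group limit the rest.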
